A study of Mus musculus with 12 samples.

Results

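Liver and yolk sac endoderm genes were followed in mouse teratomas, tumours of mixed tissue that embryonic stem (ES) cells form under the skin of a host. The set held 10 genes: Hnf4a, Sox17, Afp, Alb, Fgb, Apoa1, Apoa2, Apob, Cubn and Amn. They were chosen by symbol for their known place in hepatic and visceral endoderm, with earlier results of these data known. All 10 were found among the 38986 genes listed in each library, and 8 of the 10 were among the 18405 genes that passed the filter on low counts, while Alb and Apoa2 did not. The teratomas came from R1 mouse ES cells infected with a lentiviral pEZ-Lv235 vector carrying the ubiquitous CAG promoter and selected with puromycin. The ET group carried the empty vector, the WT group carried wild-type Dnmt3L, a cofactor of the DNA methyltransferases that set new methylation, and the other 2 groups carried Dnmt3L in which lysine was replaced by arginine at an acetylation site, K238R or K412R. Every group kept the endogenous Dnmt3l gene. The hosts were immunodeficient male mice of the NOD-Prkdc EM1 strain, 8 weeks old, and the tumours were taken at day 21 after subcutaneous injection. Each group had 3 libraries. The host is also a mouse, so reads from its cells inside the tumour are counted with those of the graft. Nothing in the labels says which tumours shared a host, so p-values measure the spread between these libraries.

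The visceral endoderm of the yolk sac and the fetal liver share much of a secretory programme. Both make alpha-fetoprotein and apolipoproteins under the control of HNF4A, GATA and forkhead factors, and both carry nutrients between mother and embryo or through the plasma. The yolk sac also takes up protein and vitamins through cubam, a receptor complex of cubilin and amnionless that is used again in the kidney tubule and the ileum. Albumin rises as hepatoblasts mature, after alpha-fetoprotein has begun to be made.

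The promoter sequences of 5 of the genes are shown. Apob, Fgb and Cubn were picked because their pairs had the highest correlations within the set, which were not tested. Amn was added as the partner of cubilin, and Afp as the classical marker of this tissue. Each stretch holds 120 bases upstream of the start site in the RefSeq promoter table, ending at that site for Afp, Fgb and Cubn, 48 bases before it for Apob and 1 base before it for Amn, in assembly GRCm38.p6, written 5′ to 3′ on the strand of the gene. Capitals mark matches, on either strand, to GTTAAT (the core of sites for HNF1) or to TGTTTNC (the forkhead motif). The stretches are Afp at chr5:90490594-90490713 (plus strand), Apob at chr12:7977509-7977628 (plus strand), Fgb at chr3:83049864-83049983 (minus strand), Cubn at chr2:13491877-13491996 (minus strand) and Amn at chr12:111270975-111271094 (plus strand), and none overlaps an annotated exon.
Afp: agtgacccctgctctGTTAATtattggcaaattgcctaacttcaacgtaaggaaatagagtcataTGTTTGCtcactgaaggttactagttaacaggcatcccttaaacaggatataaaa
Apob: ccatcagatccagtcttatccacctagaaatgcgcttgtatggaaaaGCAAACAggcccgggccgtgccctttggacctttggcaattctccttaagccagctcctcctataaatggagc
Fgb: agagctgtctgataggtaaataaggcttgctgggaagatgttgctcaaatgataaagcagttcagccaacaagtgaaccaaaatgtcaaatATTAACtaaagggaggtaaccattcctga
Cubn: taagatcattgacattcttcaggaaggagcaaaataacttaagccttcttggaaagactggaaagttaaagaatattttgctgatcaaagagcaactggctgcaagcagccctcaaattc
Amn: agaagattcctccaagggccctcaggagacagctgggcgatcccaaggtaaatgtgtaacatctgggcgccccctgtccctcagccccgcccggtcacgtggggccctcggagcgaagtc

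Over the 250 bases before each start site, 9 of the 10 genes had an entry, with 11 promoters in all, and Sox17 had none. A forkhead match stood in 7 of the 11 promoters, those of Afp, Alb, Apoa1, Apob and Fgb and 1 of the 2 promoters of each of Apoa2 and Hnf4a. Among all 32851 promoters of the table, 17.8% held that motif. The HNF1 core stood in 4 of the 11, those of Afp, Alb and Fgb and the other promoter of Hnf4a, against 6.43% of all promoters. CAAAGT, the core of HNF4 sites, stood in the promoter of Alb alone among the 11, against 12.6% of all promoters, and AGATAA, which zinc finger factors such as Gata4 bind, stood in 1 promoter of Hnf4a, against 9.99%. The 4 motifs do not contain one another. The promoters of Cubn and Amn, which together make the uptake receptor, held a match to none of the 4 in this window.

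Library totals ran from 16957677 to 18546100 counts, so 1 count was worth about the same in every library. Values are given as CPM, which are counts scaled to the library total. Dnmt3l itself stood at 3.49 ± 3.66 CPM in ET, 191 ± 22.2 in WT, 1.18 ± 0.67 in K238R and 34.4 ± 7.29 in K412R (SD, n = 3 for each group), and since Dnmt3l in K238R did not stand above the empty vector, these samples are called the K238R-labelled libraries. ET replicate 3 was the most extreme library: it held the highest value of the 12 libraries for 23.5% of the tested genes and the lowest for 20.1%. WT replicate 3 came next, at 16.8% for the highest and 16.8% for the lowest. Leaving out ET replicate 2 moved the number of all genes called between WT and ET from 9 to 5784. The fitted changes against ET of the members that this moved most are given with and without ET replicates 2 and 3.

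The 10 genes were expressed at a low level in every group. Their summed CPM had a median of 22.9 in ET (range 21.2 to 36.2), 18.1 in WT (13.2 to 22.1), 24.5 in the K238R-labelled libraries (21.4 to 27.4) and 26.9 in K412R (25.2 to 32.7). The ranges of WT and ET overlapped, while all 3 K412R libraries lay above all 3 WT libraries. Cubn and Sox17 together made up 67.3% of the summed level, so that the sum says little of the other 8 genes. Of the 96 values of the 8 tested genes in the 12 libraries, 70 were under 50 counts and 9 were under 10 counts. In a bulk tumour, fewer cells of a type and less RNA per cell cannot be told apart.

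**Figure D1:**
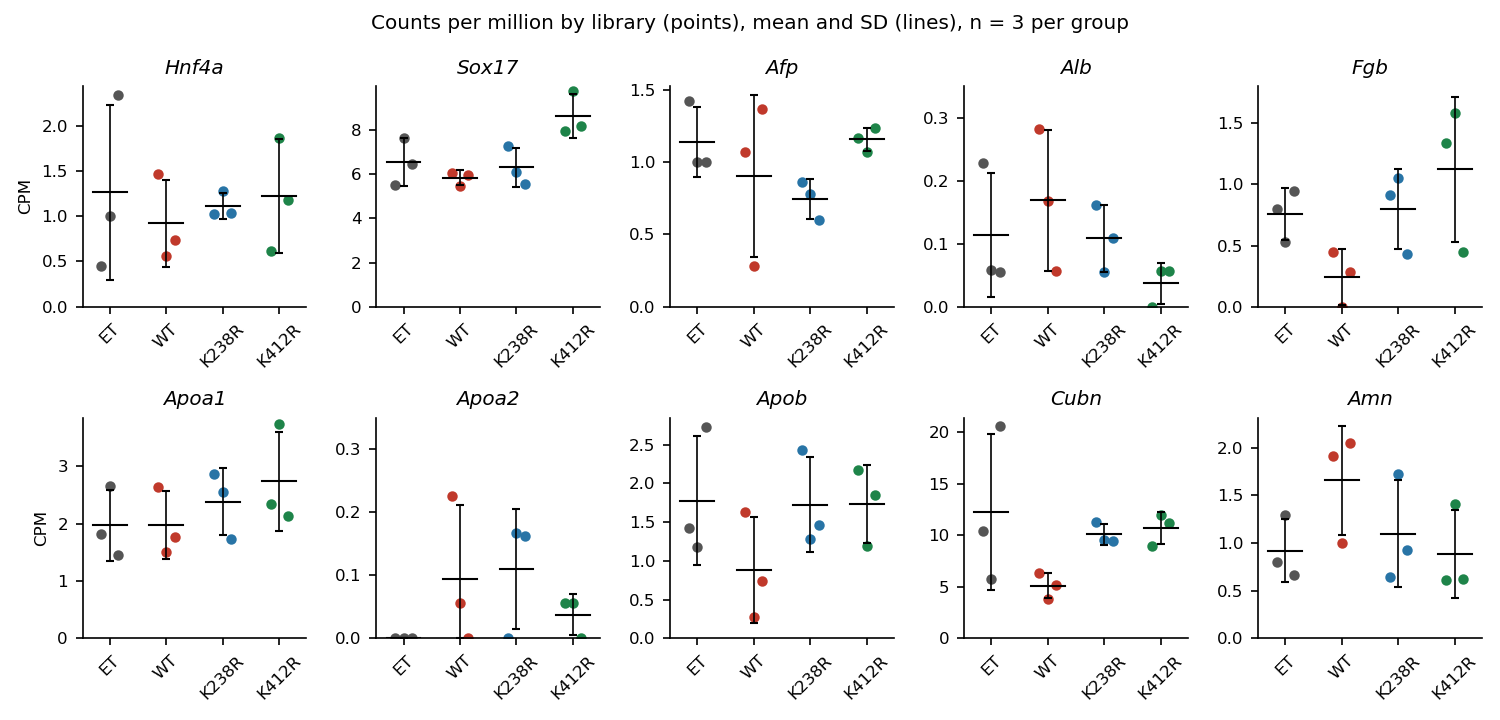
CPM (y axis, from 0) of each of the 10 genes in the ET, WT, K238R and K412R libraries, with each library as a point and the mean and SD of 3 libraries as lines. Cubn lay between 3.85 and 6.35 CPM in WT and between 8.91 and 12.0 in K412R, whereas Alb and Apoa2 stayed under 0.30 CPM in every library.

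Compared per kilobase of exon, with lengths from the GENCODE annotation of GRCm38, Apoa1 was the most abundant of the 10 at 1.83 CPM per kb, followed by Sox17 at 1.43. Cubn and Amn, which act in 1 complex, stood close together at 0.638 and 0.618 CPM per kb as means over the 12 libraries. By group they did not match, since WT had the lowest mean CPM of Cubn and the highest of Amn. Afp came next at 0.293, then Hnf4a at 0.234 and Fgb at 0.192. Apoa2 and Apob stood at 0.112 and 0.110 CPM per kb and Alb was the lowest at 0.0458. Cubn, with 14935 bases of exon against 1236 for Apoa1, led in counts but not per length. Among all tested genes the 8 members sat low, from Fgb, with 5.50% of the tested genes below it, to Cubn, with 37.9% below it (mean log2 CPM over 12 libraries).

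Hnf4a encodes the nuclear receptor that directs the hepatic and visceral endoderm programme, and its level differed more between replicates than between groups. Its CPM was 0.455, 1.003 and 2.34 in ET libraries, 1.46, 0.558 and 0.742 in WT libraries, 1.02, 1.28 and 1.03 in K238R-labelled libraries and 0.613, 1.87 and 1.18 in K412R libraries. The groups overlapped in every comparison, and ET alone covered the range of the other 9 libraries. WT differed from ET by a log2 fold change of -0.45 (standard error 0.58, adjusted p = 0.620, from the quasi-likelihood test of edgeR, adjusted over 18405 genes by Benjamini and Hochberg, as throughout), and it changed sign to 0.37 without ET replicate 3.

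Sox17 encodes a transcription factor of definitive and extraembryonic endoderm that arterial endothelium also uses. It was the steadiest of the 10 genes, with a highest library only 1.79 times its lowest. Its CPM was 5.51, 7.67 and 6.45 in ET libraries, 6.07, 5.46 and 5.99 in WT libraries, 7.28, 6.11 and 5.54 in K238R-labelled libraries and 7.97, 9.78 and 8.20 in K412R libraries. All 3 K412R libraries lay above the other 9. The log2 fold change of K412R was 0.55 against WT (standard error 0.18, unadjusted p = 0.00939, adjusted p = 0.109, edgeR) and 0.41 against ET (standard error 0.18, unadjusted p = 0.0379, adjusted p = 0.613, edgeR), and neither passed the adjusted threshold of 0.05. Leaving out ET replicate 2 or 3 put the change against ET at 0.56 or 0.41 (adjusted p = 0.144 and 0.999, edgeR). WT, K238R and ET, the neighbours below K412R in the order of means, overlapped one another.

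Of the secreted proteins, Afp encodes alpha-fetoprotein, the main plasma protein of the yolk sac and fetal liver. It was detected in all 12 libraries, at 1.42, 1.003 and 1.001 CPM in ET libraries, 1.07, 0.279 and 1.37 in WT libraries, 0.863, 0.778 and 0.597 in K238R-labelled libraries and 1.17, 1.07 and 1.23 in K412R libraries. All 3 K238R-labelled libraries lay below all 3 ET libraries, with a log2 fold change of -0.62 (standard error 0.46, adjusted p = 0.806, edgeR), which was -0.70 without ET replicate 2 and -0.70 without ET replicate 3. WT spanned both, because WT replicate 2 held only 5 counts of Afp against 19 and 24 in its replicates.

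Alb encodes albumin, the plasma protein of the mature liver, and lies 14134 bases upstream of Afp on chromosome 5 (GRCm38, chr5:90460897-90476602 for Alb and chr5:90490737-90508907 for Afp, both on the plus strand). Its counts were 4, 1 and 1 in ET libraries, 5, 3 and 1 in WT libraries, 3, 1 and 2 in K238R-labelled libraries and 0, 1 and 1 in K412R libraries, or 23 counts in all against 211 for Afp. These counts scattered no more than counting noise would give (chi-square per degree of freedom within groups 0.943), and the exact 95% Poisson intervals of the pooled counts, which cover counting error only, overlapped between WT (0.0773 to 0.321 CPM) and K412R (0.00453 to 0.135 CPM). Overlap of such intervals is not a test, and Alb was not in the main fit, so no conclusion on a difference between groups is drawn at this depth. Afp and Alb, neighbours that share enhancers, showed no relation across the 12 libraries (Pearson r = -0.28, permutation p = 0.363, adjusted over 4 relations 0.363). Spearman rho was -0.17 (permutation p = 0.589, adjusted 0.589), and r was -0.04 without the 2 libraries farthest from the median of Afp. With 0 to 5 counts of Alb in a library, counting noise would hide a relation, so its absence cannot be concluded.

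Fgb encodes the beta chain of fibrinogen, the clotting protein that hepatocytes secrete. Its CPM was 0.796, 0.531 and 0.945 in ET libraries, 0.450, 0 and 0.285 in WT libraries, 0.917, 1.06 and 0.434 in K238R-labelled libraries and 1.34, 1.58 and 0.449 in K412R libraries. WT held the lowest group mean, 0.245 ± 0.228 CPM against 0.757 ± 0.210 in ET and 1.12 ± 0.597 in K412R (SD, n = 3), and all 3 WT libraries lay below all 3 ET libraries. In the K238R-labelled libraries and in K412R, replicate 3 lay just below WT replicate 1, so that these groups overlapped with WT. The log2 fold change of K412R against WT was 2.17 (standard error 0.75, unadjusted p = 0.0139, adjusted p = 0.126, edgeR), and WT differed from ET by -1.59 (standard error 0.77, adjusted p = 0.190, edgeR). These rest on 13 counts in all 3 WT libraries, 0 of them in WT replicate 2, where a count of 0 allows up to 0.167 CPM, and without that library the log2 fold change of K412R against WT was 1.60 (adjusted p = 0.275, edgeR). Without WT replicate 1 it was 2.90. The change of WT against ET ran from -2.32 without WT replicate 1 to -1.01 without WT replicate 2, and was -1.78 and -1.38 without ET replicates 2 and 3. The other 2 fibrinogen chains were nearly silent, with Fga at 0 to 2 counts and Fgg at 0 to 4 counts in a library, although the 3 chains are secreted as 1 molecule.

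Of the apolipoproteins, Apoa1, the main protein of high-density lipoprotein, was the most evenly expressed. Its CPM was 1.82, 2.65 and 1.45 in ET libraries, 2.64, 1.51 and 1.77 in WT libraries, 2.86, 2.56 and 1.74 in K238R-labelled libraries and 2.34, 3.73 and 2.13 in K412R libraries. Every pair of groups overlapped, and the largest log2 fold change, 0.49 for K412R against ET, had a standard error of 0.34 (adjusted p = 0.728, edgeR).

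Apoa2, which sits beside Apoa1 on the same particles, held 13 counts in all and was at 0 in 6 of the 12 libraries. It had 0 counts in each ET library, 4, 1 and 0 in WT libraries, 0, 3 and 3 in K238R-labelled libraries and 1, 1 and 0 in K412R libraries. The 3 ET libraries together allow up to 0.0702 CPM (exact 95% Poisson interval), above the lower bounds of the other groups. Overlap of such intervals is not a test, and Apoa2 was not in the main fit, so no conclusion on a difference is drawn.

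Apob encodes the structural protein of chylomicrons and very low-density lipoprotein, which yolk sac endoderm, liver and intestine secrete. Its CPM was 1.42, 1.18 and 2.72 in ET libraries, 1.63, 0.279 and 0.742 in WT libraries, 2.43, 1.28 and 1.47 in K238R-labelled libraries and 2.17, 1.19 and 1.85 in K412R libraries. The WT mean of 0.884 ± 0.687 CPM was the lowest, beside 1.77 in ET, 1.72 in K238R and 1.74 in K412R, but WT replicate 1 lay among the libraries of the other groups. WT differed from ET by a log2 fold change of -0.99 (standard error 0.54, adjusted p = 0.233, edgeR), that of the K238R-labelled libraries against WT was 0.92 (standard error 0.54, adjusted p = 0.375, edgeR), and that of K412R against WT was 0.96 (standard error 0.54, adjusted p = 0.307, edgeR). Leaving out 1 library at a time, the first of these was at its largest, -1.75, without WT replicate 1 and at its smallest, -0.53, without ET replicate 3. The second ran from 0.50 without WT replicate 2 to 1.68 without WT replicate 1, and the third from 0.54 to 1.71 without the same libraries. Apob did not follow Hnf4a, which is known to regulate it, beyond the spread of the libraries (Pearson r = 0.44, permutation p = 0.157, adjusted 0.314; Spearman rho = 0.41, permutation p = 0.191, adjusted 0.366; n = 12), and r was 0.40 without the 2 libraries farthest from the median of Hnf4a.

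Of the uptake receptor, Cubn encodes cubilin, the large extracellular part that binds vitamin B12 with intrinsic factor, albumin and apolipoprotein A-I. Its CPM was 10.4, 5.78 and 20.6 in ET libraries, 6.35, 3.85 and 5.13 in WT libraries, 11.3, 9.501 and 9.45 in K238R-labelled libraries and 8.91, 12.0 and 11.2 in K412R libraries. All 3 WT libraries lay below the 6 libraries of both mutants, whereas ET replicate 2 lay among the WT values and ET replicate 3 was the highest of all. The order of means was WT (5.11 ± 1.25), K238R (10.1 ± 1.04), K412R (10.7 ± 1.59) and ET (12.3 ± 7.57 CPM, SD, n = 3), of which the last 3 overlapped one another.

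The log2 fold change of Cubn in WT against ET was -1.24 (standard error 0.37, unadjusted p = 0.00575, adjusted p = 0.110, edgeR), that of the K238R-labelled libraries against WT was 0.94 (standard error 0.37, unadjusted p = 0.0265, adjusted p = 0.228, edgeR), and that of K412R against WT was 1.05 (standard error 0.37, unadjusted p = 0.0154, adjusted p = 0.131, edgeR). None passed the adjusted threshold with all 12 libraries. The comparison of WT with ET passed it without ET replicate 2 (log2 fold change -1.57, adjusted p = 0.00484, edgeR), a fit in which 30.8% of all tested genes passed. It was smaller without ET replicate 3 (-0.63, adjusted p = 0.402, edgeR), and without WT replicate 2 it was -1.08 (adjusted p = 0.280, edgeR). That of K412R with WT passed it without ET replicate 2 (1.06, adjusted p = 0.0296, edgeR) and without ET replicate 3 (1.05, adjusted p = 0.0421, edgeR), beside 8.13% and 3.58% of all tested genes in those fits. Its log2 fold change stayed between 0.88 and 1.21 with each of the 12 libraries left out in turn.

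Amn encodes amnionless, the membrane anchor that brings cubilin to the cell surface. It was the 1 tested gene of the set with its highest mean in WT. Its CPM was 0.796, 1.30 and 0.667 in ET libraries, 1.91, 1.004 and 2.05 in WT libraries, 0.647, 1.72 and 0.923 in K238R-labelled libraries and 0.613, 1.41 and 0.617 in K412R libraries. In each comparison WT replicate 2 lay within the other group, and the log2 fold change was 0.87 for WT against ET (standard error 0.49, adjusted p = 0.242, edgeR, and 1.20 and 0.70 without ET replicates 2 and 3), -0.63 for the K238R-labelled libraries against WT (standard error 0.48, adjusted p = 0.485, edgeR) and -0.92 for K412R against WT (standard error 0.49, adjusted p = 0.283, edgeR). The 2 partners of the receptor thus had fitted changes of opposite sign in these 3 comparisons, which share the WT libraries.

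Over the 12 libraries, log2 CPM of Amn and Cubn gave a Pearson r of -0.50 (permutation p = 0.102, adjusted over 4 relations 0.314) and a Spearman rho of -0.46 (permutation p = 0.136, adjusted 0.366). Without WT replicates 1 and 3, the 2 libraries farthest from the median of Amn, r was -0.31, and with group means subtracted it was -0.14. With any 1 library left out it stayed between -0.61 and -0.40. The relation did not pass its test, and the part of the WT group in it was not tested.

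**Figure D2:**
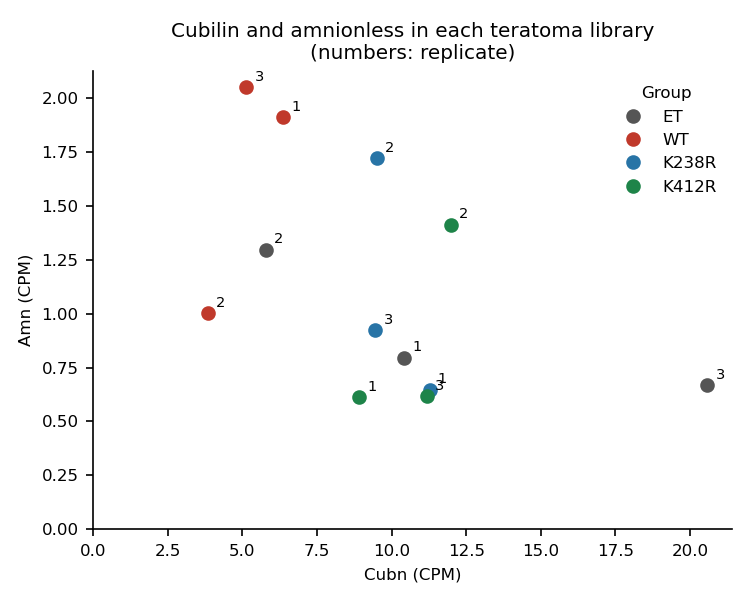
CPM of Cubn (x axis) against CPM of Amn (y axis), both from 0, with 1 point per library coloured by group and numbered by replicate. WT replicates 1 and 3 have the 2 highest Amn values, 1.91 and 2.05 CPM, beside 6.35 and 5.13 CPM of Cubn, and ET replicate 3 stands alone at 20.6 CPM of Cubn.

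Counted over the set, no gene passed an adjusted p of 0.05 in any comparison (edgeR). The background rate was itself low, at 0.0489% of tested genes for WT against ET, 0.223% for the K238R-labelled libraries against WT, 2.04% for K412R against WT, 0.00% for both mutants against ET and 0.168% for a difference among any of the 4 groups. At an unadjusted p under 0.05, 1 of the 8 tested genes was lower in WT than in ET (Cubn), against 29.1% of all tested genes in either direction. For the K238R-labelled libraries against WT it was 1 of 8, Cubn again and higher, against 17.5%. For K412R against WT it was 3 of 8, Fgb, Cubn and Sox17, all higher, against 22.8%. For K412R against ET it was Sox17 alone, against 7.91%, and for the K238R-labelled libraries against ET it was 0 of 8, against 5.61%. For any group difference it was 2 of 8, Cubn and Sox17, against 22.2%. DESeq2 called 1 of the 8, Cubn, in WT against ET (log2 fold change -1.25, adjusted p = 0.0222), where it called 10.3% of all tested genes. It called 0 of the 8 in the K238R-labelled libraries against WT (4.27% of all), in K412R against WT (9.00%), and in the K238R-labelled libraries and K412R against ET (0.0761% and 0.489%).

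By a rule of at least 2-fold and an unadjusted p under 0.05, the set gave 1 of 8 in WT against ET, where 6.02% of all genes passed, 0 of 8 in the K238R-labelled libraries against WT (5.23%), 2 of 8 in K412R against WT (5.02%), and 0 of 8 in the K238R-labelled libraries and in K412R against ET (0.951% and 1.57%). Groups that did not overlap were as few. All 3 WT libraries lay below all 3 ET libraries for 1 gene, Fgb, against 11.4% of all tested genes. All 3 K238R-labelled libraries lay above all 3 WT libraries for 1 gene, Cubn, against 12.7%, and below all 3 ET libraries for 1 gene, Afp, against 4.24%. All 3 K412R libraries lay above all 3 WT libraries for 2 genes, Cubn and Sox17, against 14.4%, and above all 3 ET libraries for 1 gene, Sox17, against 5.01%.

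**Figure D3:**
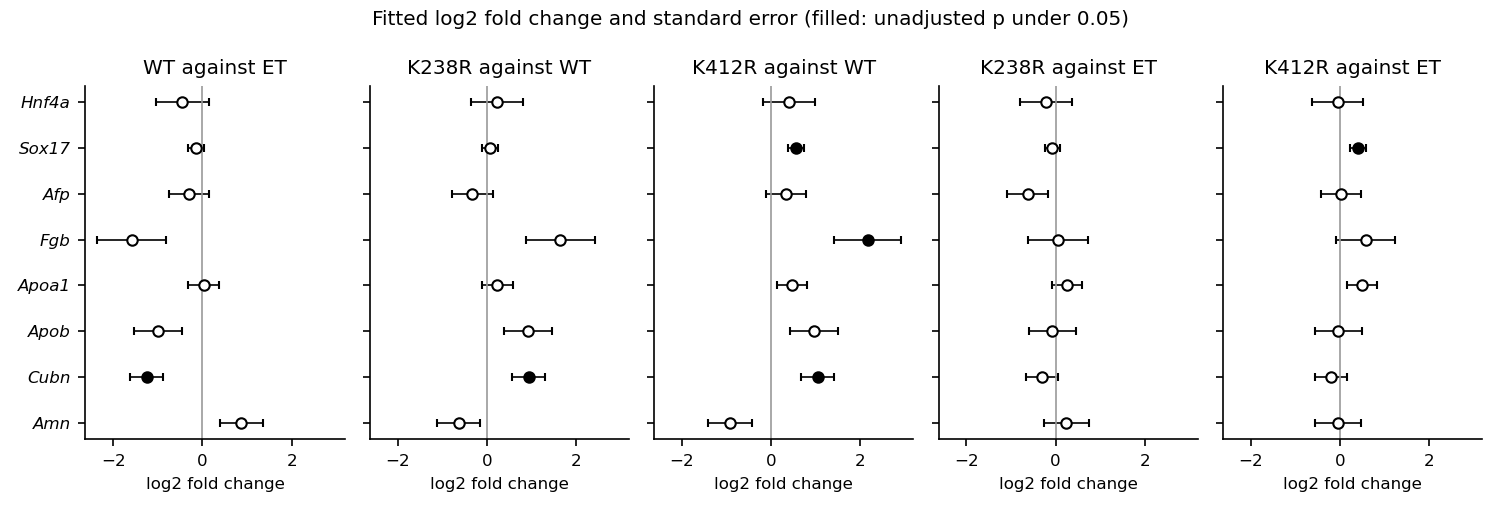
Fitted log2 fold change (x axis) of the 8 tested genes in 5 comparisons, with the standard error as a bar and filled points for an unadjusted p under 0.05. Cubn is filled in the 3 comparisons that hold WT (-1.24, 0.94 and 1.05), Amn lies on the other side of 0 in each of them, and in both comparisons with ET that leave WT out most points lie within 1 standard error of 0.

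In WT, 6 of the 8 tested genes had their lowest group mean, all but Afp and Amn, although for Apoa1 WT and ET were equal to 3 digits at 1.97 CPM. The share of all tested genes with their lowest mean in WT was not computed, so this count stands without a background. The median log2 fold change of the 8 was -0.38 in WT against ET beside -0.01 over all tested genes, 0.24 in the K238R-labelled libraries against WT beside 0.00, and 0.51 in K412R against WT beside 0.01. Against ET it was -0.07 in the K238R-labelled libraries and -0.00 in K412R, beside -0.02 and -0.02. These comparisons share WT or ET libraries and are not independent of one another. WT replicate 2 held the lowest value of the 12 libraries for 4 of the 8 genes, against 10.1% of all tested genes. Without it the fitted change of Afp in WT against ET turned from -0.30 to 0.12.

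Among themselves, 24 of the 28 pairs of tested genes had a positive Pearson r of log2 CPM over the 12 libraries, with a median of 0.35. The highest were 0.83 for Apob with Fgb, 0.79 for Apob with Cubn, 0.73 for Fgb with Cubn, 0.72 for Afp with Fgb and 0.71 for Apoa1 with Sox17. With group means subtracted the same 3 pairs of Apob, Fgb and Cubn stood at 0.70, 0.62 and 0.46, Afp with Fgb at 0.84 and Apoa1 with Sox17 at 0.76, so that replicates of 1 group also varied together. The points share library and depth, and low counts add their own noise, so these are descriptions without a test. Pairs drawn from all tested genes were not computed, so the correlations stand without a background and are not particular to the set. Within groups the scatter of Cubn was 23.2 times that of counting noise (chi-square per degree of freedom), that of Hnf4a 5.90 and that of Apob 5.74, whereas Afp and Sox17 stood at 1.93. This index grows with the count, so it does not rank the genes by how variable they were. Cubn held 2048 counts in all, against 242 for Hnf4a and 211 for Afp.

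The genes most like each member over the 12 libraries, by Pearson r of log2 CPM among all tested genes, came from outside the set. For Cubn they were Ccdc117 (0.95), Ttll12 (0.95) and Gm20939 (0.95), for Apob they were Nup62cl (0.95), Bnip3l (0.94) and M6pr (0.94), and for Fgb they were H2bc7 (0.93), 1700003F12Rik (0.91) and Rpl17-ps10 (0.91). For Amn they were Tm4sf5 (0.92), Shfl (0.91) and Rfxap (0.90), and for Hnf4a Mrpl28 (0.90), Rpp40 (0.85) and Cuta (0.84). For Afp they were Gm14413 (0.89), Gm46226 (0.88) and LOC118568708 (0.85), for Apoa1 2010320M18Rik (0.90), Gosr2 (0.89) and Galnt10 (0.88), and for Sox17 5730405O15Rik (0.88), Parva (0.85) and Tmbim6 (0.85). These were the 3 highest of each member among the 18405 genes searched over 12 points, with no test made.

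Other genes of the same tissues place the set. Of 16 endoderm transcription factors, 13 were tested, and the list summed to between 149 and 345 CPM over the 12 libraries, led by Foxa1, Foxa2 and Prox1, which neural tissue expresses too. In K412R against WT, 1 of the 13 rose, Foxa1, the pioneer factor of endoderm and floor plate, from 64.0 ± 7.49 to 136 ± 35.2 CPM (SD, n = 3, log2 fold change 1.07, standard error 0.17, adjusted p = 0.0132, edgeR), and none passed in the other 4 comparisons. Foxa2 stood at 28.0 ± 15.7 CPM in WT and 82.5 ± 18.1 in ET without passing with all 12 libraries (log2 fold change -1.55, standard error 0.31, adjusted p = 0.0972, edgeR). The median log2 fold change of the 13 was -0.46 in WT against ET, 0.30 in the K238R-labelled libraries against WT and 0.42 in K412R against WT. DESeq2 called more, at 3, 2 and 3 of the 13 in the same 3 comparisons, beside 10.3%, 4.27% and 9.00% of all tested genes, and 0 in both mutants against ET.

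Of 12 yolk sac and visceral endoderm genes, 10 were tested, led by the endocytic adaptor Dab2 (65.3 CPM over 12 libraries), the epithelial cadherin Cdh1 (59.2) and Lrp2 (36.3), which encodes megalin, the partner of cubam in uptake. One of the 10 rose in K412R against WT, the retinol carrier Rbp4, from 2.80 ± 0.875 to 7.14 ± 1.28 CPM (log2 fold change 1.33, standard error 0.25, adjusted p = 0.0265, edgeR), and none passed in the others. The median log2 fold change of the 10 was -0.08 in WT against ET, -0.08 in the K238R-labelled libraries against WT and 0.24 in K412R against WT. Lrp2 itself stood at 28.8 ± 11.2 CPM in WT and 40.0 ± 11.9 in ET. Of 11 parietal endoderm genes, all were tested and 0 passed in any of the 5 comparisons (edgeR), against between 1 and 4 at an unadjusted p under 0.05 and at most 1 by DESeq2, with Sparc at 766 CPM, Col4a1 at 571 and Col4a2 at 417, matrix genes that many mesenchymal cells express.

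The secreted products of a mature liver were mostly near 0. Of 22 plasma protein genes, 10 were tested, led by Vtn (163 CPM), Trf (17.1) and Itih3 (7.73), and 10 held fewer than 10 counts in every library. Vtn, which encodes vitronectin, rose in the K238R-labelled libraries against WT (1.48 on the log2 scale, standard error 0.24, adjusted p = 0.0432, edgeR) and in K412R against WT (1.83, standard error 0.25, adjusted p = 0.00913, edgeR), from 62.5 ± 10.3 CPM in WT. In ET it stood at 185 ± 70.1 CPM, with WT against ET at -1.55 (standard error 0.24, adjusted p = 0.0537, edgeR). The K238R-labelled libraries and K412R stood at -0.07 and 0.28 against ET (standard error 0.24 for both). In K412R against WT Rbp4, which is on both lists, also rose, so that 2 of the 10 passed there, 1 of the 10 passed in the K238R-labelled libraries against WT, and 0 passed in the other 3 comparisons. The median log2 fold change of the 10 was 0.37 in WT against ET, with 6 of the 10 higher, 0.14 in the K238R-labelled libraries against WT and 0.11 in K412R against WT. DESeq2 called 2, 3 and 2 of the 10 in the same 3 comparisons and 0 in both mutants against ET. Vtn carried most of the summed level of the list. Without it the mean sum was 51.6 ± 2.60 CPM in WT, 37.6 ± 10.4 in ET, 44.6 ± 12.0 in K238R and 47.5 ± 5.33 in K412R (SD, n = 3), and WT was the highest.

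Of 16 mature hepatocyte enzymes, 5 were tested, led by Ass1 (9.85 CPM), Arg1 (7.25) and Fbp1 (0.802), and Cyp3a11 and Cyp8b1 had no count in any library. Of 12 further lipoprotein genes, 4 were tested, led by Apoe (558 CPM), Lcat (3.16) and Apoc1 (2.05). Neither list had a gene past the adjusted threshold in the 5 comparisons by edgeR or DESeq2, and at most 1 enzyme and 2 lipoprotein genes had an unadjusted p under 0.05 in a comparison. The enzymes had a median log2 fold change of 0.60 in WT against ET, with 5 of 5 higher, -0.71 in the K238R-labelled libraries against WT, with 5 of 5 lower, and -0.32 in K412R against WT. The lipoprotein genes had medians of 0.52, -0.54 and -0.18 in the same 3 comparisons. The tested members had medians of -0.38, 0.24 and 0.51 there, of the other sign than both lists in each. Apoe, which macrophages and glia also make, stood at 780 ± 34.9 CPM in WT and 455 ± 175 in ET.

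The cell types that share single members were read in the same libraries. Of 13 intestinal epithelium markers, which bear on Cubn, Amn, Apob and Apoa1, 6 were tested, led by Muc2 (10.8 CPM), Krt20 (3.003) and Lgals4 (2.66), and the summed level was between 12.8 and 24.3 CPM over the 12 libraries. Of 10 kidney tubule markers, which bear on Cubn and Amn, 5 were tested, led by Lhx1 (20.5 CPM), Pax2 (8.30) and Pax8 (4.89), which neural tissue expresses too, and the summed level was between 27.0 and 50.1 CPM in WT and between 21.9 and 28.8 in K412R. The list was mixed. Of its 10 genes, 5 held under 10 counts in every library, among them Umod with at most 1, while the transporters Slc22a8 and Slc22a6 held up to 135 and 36 counts in a library. Of 12 endothelial markers, which bear on Sox17, all were tested, led by Cdh5 (87.6 CPM), Pecam1 (46.3) and Kdr (34.3), and the summed level was between 305 and 336 CPM in WT and between 248 and 295 in K412R. No gene of these 3 lists passed an adjusted p of 0.05 in any of the 5 comparisons (edgeR). At an unadjusted p under 0.05 (edgeR), at most 2 intestinal and 2 kidney markers passed in a comparison, where 5.61% to 29.1% of all tested genes did. Of the 12 endothelial markers, 8 passed in the K238R-labelled libraries against WT, all lower, against 17.5% of all tested genes. All 3 K238R-labelled libraries lay below all 3 WT libraries for 10 of the 12, against 11.3% of all. For K412R below WT it was 6 of the 12, against 16.6%. DESeq2 called 0 intestinal, 0 kidney and at most 3 endothelial markers in a comparison, the 3 where it called 4.27% of all. Their median log2 fold changes in WT against ET were -0.25, 0.41 and 0.44, in the K238R-labelled libraries against WT 0.41, 0.09 and -0.55, and in K412R against WT -0.10, -0.86 and -0.35.

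Sox17 stood highest in K412R, against both WT and ET. Of the 12 endothelial markers, 11 had a negative log2 fold change in K412R against WT (median -0.35), the group in which all 12 were higher than in ET. In K412R against ET, 7 of the 12 were higher and 5 lower (median 0.04). Cdh5 stood at 0.08 in K412R against WT and at 0.29 in K412R against ET. Over the 12 libraries Sox17 and Cdh5, the cadherin of endothelial junctions, gave a Pearson r of 0.32 (permutation p = 0.314, adjusted 0.363) and a Spearman rho of 0.34 (permutation p = 0.275, adjusted 0.366), with r at 0.28 without the 2 libraries farthest from the median of Sox17. The part of endothelial, intestinal or kidney cells in the levels of single members was not tested beyond these values. Of 9 choroid plexus markers, a tissue that also expresses Vtn and Rbp4, 8 were tested, led by Enpp2 (169 CPM), Otx2 (30.2) and Aqp1 (19.9). Of the 8, 4 had a higher and 4 a lower fitted level in the K238R-labelled libraries than in WT, and 5 a higher and 3 a lower level in K412R than in WT. Folr1 rose in both mutants against WT (log2 fold change 1.76 and 2.09, adjusted p = 0.0219 and 0.00435, edgeR), Enpp2 rose in K412R against WT (1.37, adjusted p = 0.00662, edgeR), and none passed in the other 3 comparisons. DESeq2 called 3 of the 8 in WT against ET, 2 in each mutant against WT and 0 in each mutant against ET. Calls by edgeR over all of these lists together hung on single libraries. With each library left out in turn they numbered 0 to 12 in the K238R-labelled libraries against WT, with 0 left without any 1 of the K238R-labelled replicates, WT replicates 2 and 3 or K412R replicate 3. They numbered 1 to 10 in K412R against WT, with 1 left without WT replicate 3, and 0 to 36 in WT against ET, with 36 without ET replicate 2.

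**Figure D4:**
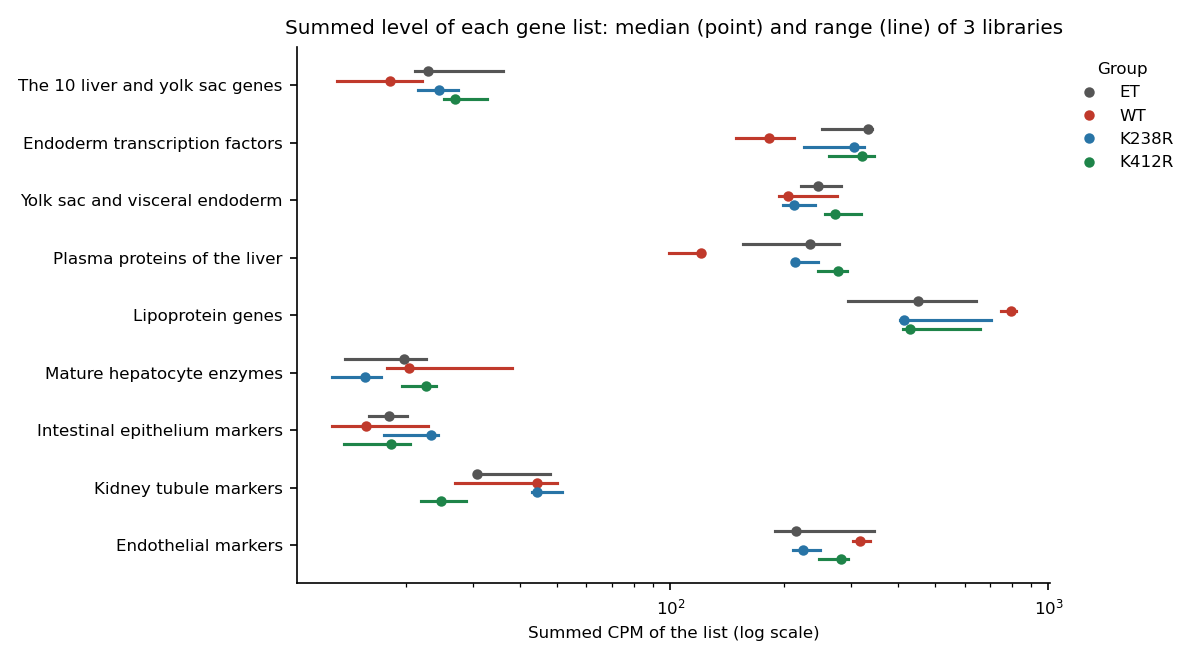
Summed CPM of each gene list on a log axis, with the median of 3 libraries as a point and their range as a line, by group. The 10 liver and yolk sac genes sum to between 13.2 and 36.2 CPM, and plasma protein genes lie between 99.4 and 123 CPM in WT and between 156 and 293 in the other groups, a sum of which Vtn is the largest part and which without Vtn has its highest mean in WT (51.6 CPM).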

How the data were processed

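Poly(A)-selected RNA from 12 teratomas was sequenced from both ends with the CORALL RNA-seq V2 kit. The authors named fastp, STAR, Salmon and GATK with build GRCm39, and they deposited an estimated count per gene and library, not normalized and already whole apart from rounding of the largest values; the annotation and the handling of molecular identifiers are not given in the sources used here. Groups came from the sample titles, with 3 libraries each. CPM was computed on library totals (16957677 to 18546100 counts). The tests used edgeR 4.0.16 (R 4.3.3): TMM factors, filterByExpr, a robust quasi-likelihood fit of 1 mean per group to all 12 libraries, and Benjamini-Hochberg adjustment over 18405 genes. The study's methods name DESeq2; here version 1.42.0 of it was an alternative, as were RLE factors, no filter, 2 groups alone, a replicate block and leaving out each library. Fits were tested on simulated data. Correlations used log2 CPM (prior count 0.5) and 100000 permutations (two-sided, scipy 1.17.1). Exon lengths came from GENCODE vM21 and promoters from RefSeq, both GRCm38, which differs from the build of the counts and gave no counts. Motifs were searched on both strands over 250 bases. The members, lists and tests were chosen with earlier results of these data known. Named are all 10 members, Dnmt3l, the 3 most abundant tested genes of each list with up to 4 past the threshold, and the 3 genes most correlated with each member; Foxa2's test, Fga, Fgg, Cyp3a11, Cyp8b1 and Umod were named after their values were seen.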

Additional observations from a re-analysis of the deposited data

How the results depend on the processing

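Most of the fitted changes of single genes (679 of 717 under the alternatives) kept their direction and their side of the threshold, 33 changed sign and 5, all Cubn, passed the threshold. The number of the set called was 1 rather than 0 for WT against ET with DESeq2 and 1 for K412R against WT in a fit of these 2 groups alone (Cubn, log2 fold change 1.04, adjusted p = 0.0220, edgeR), where 7 of the set were tested and 10.6% of all genes were called. With each library left out in turn it was 0 to 1 for WT against ET, for K412R against WT and for any group difference. The call came without ET replicate 2 in all 3, where 30.8%, 8.13% and 18.7% of all tested genes were called, and also without ET replicate 3 for K412R against WT (3.58%). Of 18 pairs of same-numbered libraries, 4 had deviations correlated above 0.1 (range -0.26 to 0.26). Differently numbered libraries were not set beside them, so whether the replicate numbers pair the samples was not tested. With a replicate block the set still had 0 calls, Cubn in WT against ET was at -1.17 (adjusted p = 0.0658, edgeR), and Fgb in the K238R-labelled libraries against ET turned to -0.0038. The calls over all genes moved more, for WT against ET from 9 to 1898 with DESeq2 and 926 with the block, for the K238R-labelled libraries against WT from 41 to 786 and 203, and for K412R against WT from 375 to 1657 and 1131. In the other lists together, the genes called rose to 11, 12 and 9 with DESeq2 in the same 3 comparisons.

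The log2 fold changes that changed sign when 1 library was left out had these ranges, and the cause was not tested. In WT against ET they were -0.76 to 0.12 for Afp, -0.22 to 0.30 for Apoa1 and -0.92 to 0.37 for Hnf4a. In the K238R-labelled libraries against WT they were -0.75 to 0.13 for Afp, -0.020 to 0.71 for Hnf4a and -0.043 to 0.16 for Sox17, and in K412R against WT -0.093 to 0.79 for Afp and -0.079 to 0.87 for Hnf4a. In the K238R-labelled libraries against ET they were -0.39 to 0.40 for Apob, -0.20 to 0.38 for Fgb, -0.25 to 0.58 for Amn, -0.64 to 0.31 for Cubn, -0.62 to 0.60 for Hnf4a and -0.18 to 0.066 for Sox17. In K412R against ET they were -0.045 to 0.21 for Afp, -0.24 to 0.43 for Apob, -0.58 to 0.30 for Amn, -0.51 to 0.42 for Cubn and -0.53 to 0.76 for Hnf4a. The 4 relations stayed on their side of the threshold under all 60 alternatives. A fit without edgeR's robust step, added after seeing the data, changed no call of the set. Counts were lowest for Alb and Apoa2, while for Cubn, Hnf4a, Apob, Amn, Apoa1 and Fgb the scatter between replicates was 3.22 to 23.2 times that of counting noise.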
